A study of Mus musculus with 16 samples.

Results

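The 35 genes described here are interferon-stimulated genes (ISGs), followed in the liver and white fat of obese mice that received halofuginone or vehicle. They were chosen by gene symbol from a fixed list of known ISGs. All 35 symbols were found in both gene tables, out of 22322 gene identifiers in each. By role they are 2 genes of the ISG15 system, 3 IFIT proteins, 5 genes of the oligoadenylate synthetase (OAS) family, 10 other antiviral effectors, 3 sensors of foreign nucleic acid, 5 transcription factors and 7 GTPases of the interferon-gamma response.

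Interferons are cytokines that cells release on sensing viral or misplaced nucleic acid. Type I interferons (alpha and beta) signal through the receptor chains IFNAR1 and IFNAR2 and the kinases JAK1 and TYK2 to a complex that contains STAT2 and IRF9 and binds the interferon-stimulated response element (ISRE). Interferon-gamma signals through IFNGR1 and IFNGR2 to the gamma-activated sequence (GAS). In liver and in fat a low level of ISG expression is present without infection, and hepatocytes, adipocytes, endothelium and resident immune cells all carry interferon receptors.

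The series measured poly(A)-selected RNA of DIO (diet-induced obese) mice. Mice received halofuginone, an inhibitor of prolyl-tRNA synthetase, at 100 μg/kg by intraperitoneal injection every 2 days, or vehicle on the same schedule, and tissue was taken after 8 weeks. Liver had 5 vehicle libraries (labelled HFD) and 5 halofuginone libraries (labelled H100), and white adipose tissue had 3 and 3. All groups therefore share the obese state, and there was no group of lean or of untreated mice among the samples used here. Strain, age, sex and fat depot are not given in the sources used here, nor is it stated that each library is a separate animal, so p-values measure the spread between these libraries, part of which may be technical. Library totals were 20309956 to 31980683 counts in liver and 17070614 to 21387799 in fat. At these depths 0 counts in a library still allow up to 3, or 0.0938 to 0.148 CPM (counts per 1000000 of the library) in liver and 0.140 to 0.176 CPM in fat, counting error only. All 7 hepatocyte markers were expressed in liver and all 6 adipocyte markers in fat. The adipocyte genes Adipoq, Plin1, Lep and Retn were at 3 counts or fewer in every liver, and the hepatocyte genes Cps1 and Fgb in every fat library.

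A pair of libraries has to be named before the results. Halofuginone liver 1 stood apart from the other halofuginone livers in genes outside the list: Asns, which makes asparagine and is induced by amino acid shortage, read 6.71 CPM there against 55.5 to 127 CPM in halofuginone livers 2 to 5 and 0.317 to 1.35 CPM in vehicle. Trib3, a target of the same response, read 5.96 CPM there against 210.5 to 357 CPM in the other 4 and 2.76 to 5.73 CPM in vehicle. In both genes this library read above every vehicle liver but far below the other halofuginone livers. A weak response and a wrong treatment label cannot be told apart here, and neither was tested. The library was kept as labelled, and liver values over all libraries carry that doubt. In fat, halofuginone library 3 was highest of all 6 libraries for 30 of the 35 ISGs, against 12% of all genes. Members that either library moves are also given without it.

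The promoter sequences of 6 called members are shown first, because ISRE and GAS motifs were searched there. They are the called members of smallest p that hold a motif, so that each holds a match was fixed by the choice. The called members Oasl1 and Oasl2 held no match and were passed over. Sequences are from RefSeq, build GRCm38.p6, and were matched by symbol, while the submitters' processing notes name build mm39 for the counts. Each runs from 170 bases before the annotated start to 10 bases after it, written 5′ to 3′ on the gene's strand, and capitals mark matches to the ISRE core GAAANNGAA on either strand (TTCNNTTTC on the reverse).
Isg15: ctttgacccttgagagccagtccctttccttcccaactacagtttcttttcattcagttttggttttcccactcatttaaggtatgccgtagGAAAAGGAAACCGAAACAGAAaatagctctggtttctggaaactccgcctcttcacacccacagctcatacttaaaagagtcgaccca
Ifit3: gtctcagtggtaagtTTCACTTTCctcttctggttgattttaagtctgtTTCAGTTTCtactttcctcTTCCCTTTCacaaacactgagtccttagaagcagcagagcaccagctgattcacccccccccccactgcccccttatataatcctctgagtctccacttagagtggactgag
Rsad2: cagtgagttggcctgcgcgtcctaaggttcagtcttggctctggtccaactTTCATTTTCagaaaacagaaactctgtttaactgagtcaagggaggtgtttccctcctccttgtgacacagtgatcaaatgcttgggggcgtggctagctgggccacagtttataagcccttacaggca
Irgm1: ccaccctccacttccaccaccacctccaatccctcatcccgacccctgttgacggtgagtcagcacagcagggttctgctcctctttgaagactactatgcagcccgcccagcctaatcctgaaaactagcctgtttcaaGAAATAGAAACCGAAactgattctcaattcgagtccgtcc
Ifi44: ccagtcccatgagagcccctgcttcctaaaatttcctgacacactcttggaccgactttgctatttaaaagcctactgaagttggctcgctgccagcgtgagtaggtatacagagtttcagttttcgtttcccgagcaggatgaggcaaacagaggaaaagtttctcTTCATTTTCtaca
Ifit1: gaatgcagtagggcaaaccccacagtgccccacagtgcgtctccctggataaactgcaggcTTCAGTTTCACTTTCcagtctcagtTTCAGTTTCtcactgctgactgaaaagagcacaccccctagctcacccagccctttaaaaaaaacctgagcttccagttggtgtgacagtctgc

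The windows are chr4:156200809-156200988 for Isg15 (minus strand), chr19:34583359-34583538 for Ifit3 (plus strand), chr12:26456443-26456622 for Rsad2 (minus strand), chr11:48871411-48871590 for Irgm1 (minus strand), chr3:151749901-151750080 for Ifi44 (minus strand) and chr19:34640719-34640898 for Ifit1 (plus strand). Isg15 held 3 ISRE core matches that overlap one another and begin 78, 72 and 66 bases before the start. Ifit1 and Ifit3 also held 3 each, beginning 109, 103 and 84 bases before the start in Ifit1 and 155, 121 and 102 in Ifit3. Irgm1 held a pair that overlap (30 and 24 bases), Rsad2 held 1 match (119 bases), and in Ifi44 the match spans the start, beginning 3 bases before it. The second motif searched was the GAS core TTCNNNGAA, which reads the same on both strands, and none of the 6 windows held it. Over windows of 300 bases (250 before the start and 50 after), 27 of the 35 members had a promoter in the table, and 17 of these 27 genes (63%) held an ISRE core against 9.76% of 27025 genes (8.56% of 32851 promoters). A GAS core was in 10 of the 27 (37%: Bst2, Gbp7, Ifi35, Ifit2, Igtp, Irf1, Irf8, Isg20, Oas1a and Tgtp1) against 9.55% of genes (8.30% of promoters), and in 1 member, Bst2, a GAS and an ISRE match overlap. An ISRE core was held by 7 of the 12 called members with a listed promoter, and of the 15 that were not called 10 did. Oas2, Mx1, Mx2, Usp18, Zbp1, Rtp4, Iigp1 and Parp14 had no entry. A match is a string of letters and was not tested as a binding site.

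Levels in vehicle tissue come first, as FPKM (fragments per length of gene and size of library), the only scale here on which genes can be set beside one another. In vehicle liver the member of highest level was Iigp1, an immunity-related GTPase, at 118 ± 19.5 FPKM (SD, n = 5). Bst2, which encodes the virus-tethering protein tetherin, followed at 53.7 ± 8.13 FPKM and Irgm1 at 31.9 ± 5.29 FPKM, and the median member stood at 5.29 FPKM. In vehicle fat Bst2 (35.7 FPKM), Irf1 (33.3 FPKM) and Gbp2 (32.9 FPKM) led, with a median member at 6.92 FPKM. The order is coarse: the vehicle ranges of neighbours overlapped in 31 of 34 steps in liver and in 33 of 34 in fat. Setting the vehicle libraries of both tissues side by side, all fat libraries lay above all livers for 12 members, among them Gbp2 (4.73 FPKM in liver), Irf8 (23.4 FPKM in fat and 2.96 in liver) and Oas1a (10.1 and 2.70 FPKM). All livers lay above all fat libraries for 9 members, among them Iigp1 (6.39 FPKM in fat), Usp18 (6.72 FPKM in liver and 2.61 in fat) and Isg15 (8.64 and 4.08 FPKM), and the ranges of the other 14 overlapped. The tissues were deposited as separate tables, and these differences of level were not tested. The share of all genes without overlap between the tissues was not worked out, so these counts cannot be read as particular to the members.

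In liver, 16 of the 35 ISGs were lower under halofuginone by edgeR's quasi-likelihood test (adjusted p under 0.05 over all 12311 genes tested, here called), and 0 were higher. Over all tested genes 10.5% were called lower and 12.7% higher. The 16 are Isg15, Usp18, Ifit1, Ifit3, Oasl1, Oasl2, Mx2, Rsad2, Ifi44, Xaf1, Rtp4, Zbp1, Irf7, Irf9, Igtp and Irgm1. The median log2 fold change (halofuginone over vehicle) of the 35 was −0.74, against 0.02 over all genes, with 32 members below 0 and 3 above (Stat2 0.19, Ddx58 0.13 and Isg20 0.02). For 9 members (Isg15, Usp18, Oasl1, Oasl2, Mx2, Rsad2, Ifi44, Zbp1 and Irf9) every halofuginone liver lay below every vehicle liver, which was so for 6.55% of all genes, and for 0 members did every halofuginone liver lie above, against 5.13% of all genes. In bulk tissue, less RNA per cell and fewer cells that express a gene cannot be told apart.

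**Figure D1:**
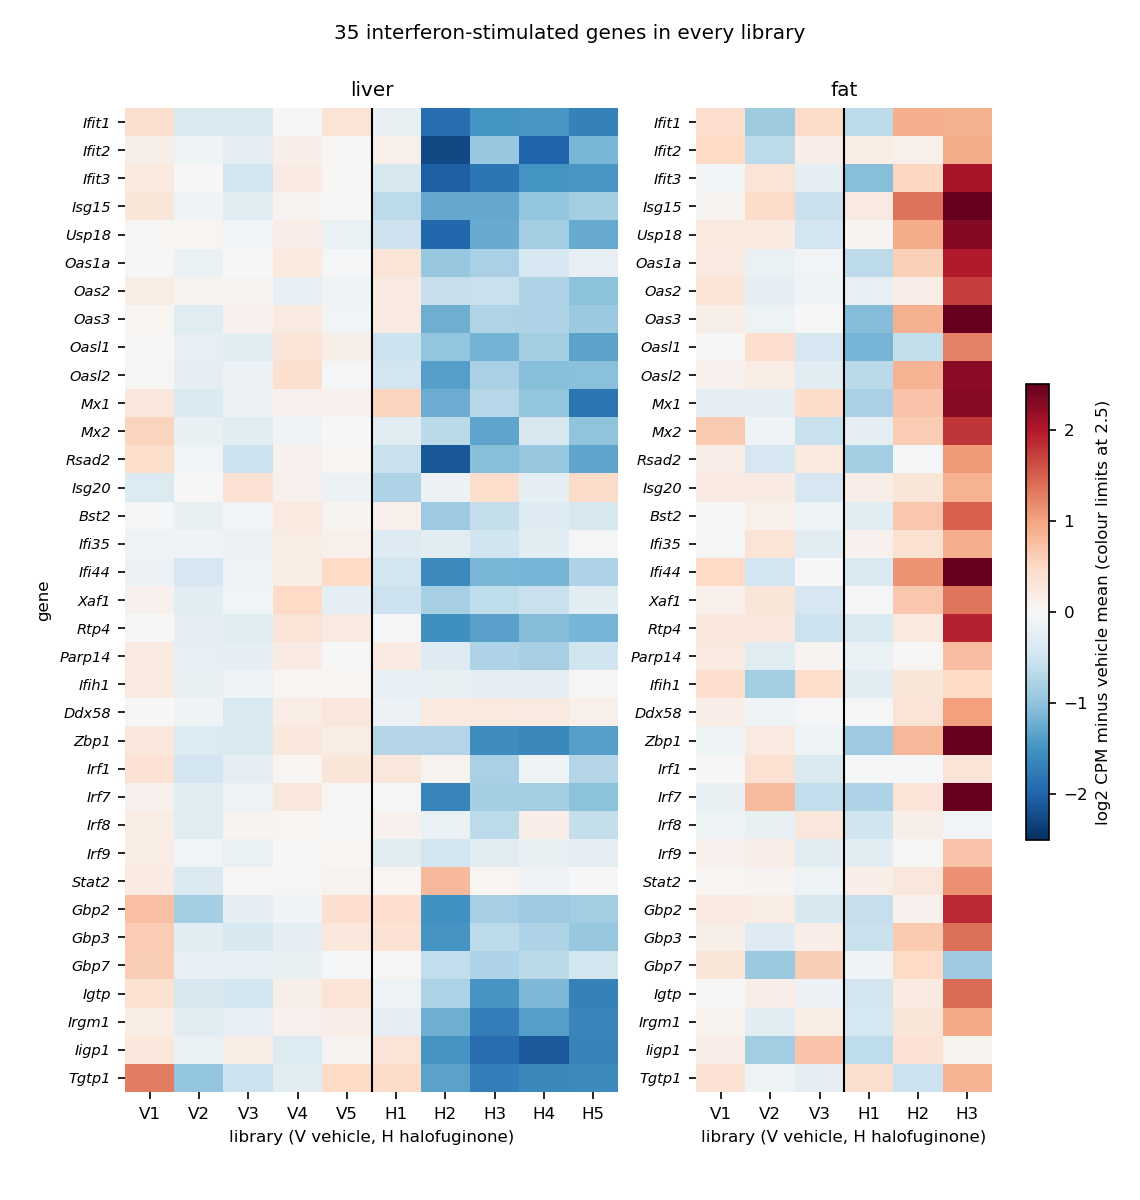
Log2 CPM minus the vehicle mean of the tissue for the 35 genes (rows) in each library (columns), 5 vehicle and 5 halofuginone livers on the left and 3 and 3 fat libraries on the right. Blue is below the vehicle mean and red above it. Halofuginone livers 2 to 5 are blue in most rows, and halofuginone fat 3 is red in most rows. Halofuginone liver 1 is mixed, below the vehicle mean for 20 of the 35 genes and above it for 15.

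The halofuginone livers did not read alike. The mean over the 35 genes of log2 CPM minus the vehicle mean was −0.25 to 0.23 in the 5 vehicle livers. It was −0.99, −0.90, −0.82 and −0.87 in halofuginone livers 2, 3, 4 and 5, and −0.10 in halofuginone liver 1, within the vehicle range. Halofuginone livers 2 to 5 lay below the whole vehicle range for 29 to 31 of the 35 members, where 29.8 to 31.7% of all genes did, and halofuginone liver 1 for 13, where 24.5% of all genes did. Halofuginone liver 1 was the highest of its group for 26 of 35 members, against 33.1% of all genes.

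Without halofuginone liver 1 the edgeR test called 28 members, all lower, and 21.6% of all genes were called lower. That library had the highest mean of the members in its group, so leaving it out was bound to deepen their mean fall. Liver values without it, here and below, are to be read with that limit. All 16 members called with every library were among the 28, whose log2 fold changes ran from −0.31 (Irf9) to −1.85 (Tgtp1), and the median of the 35 was −1.11. The added calls were Ifit2, Oas1a, Oas2, Oas3, Mx1, Bst2, Parp14, Gbp2, Gbp3, Gbp7, Iigp1 and Tgtp1. The 7 members that this fit did not call were Ddx58 (0.17), Ifi35 (−0.28), Ifih1 (−0.18), Irf1 (−0.40), Irf8 (−0.31), Isg20 (0.15) and Stat2 (0.21). Among the 16, the log2 fold change without halofuginone liver 1 was −1.72 (SE 0.20, adjusted p 9.85e-05) for Ifit1, −1.74 (SE 0.17, adjusted p 3.53e-05) for Ifit3 and −1.33 (SE 0.15, adjusted p 0.000103) for Rtp4. It was −1.11 (SE 0.17, adjusted p 0.000518) for Irf7, −1.30 (SE 0.23, adjusted p 0.00122) for Igtp and −1.51 (SE 0.14, adjusted p 2.48e-05) for Irgm1, and −1.36 (Rsad2) to −0.31 (Irf9) for the other 10. Single libraries moved the number of called members down to 9 (without halofuginone 3, where 4.66% of all genes were called lower) and 10 (without vehicle 4, with 6.56%). A single fit of all 4 groups with a shared spread called 5 of the 35 in liver, all lower, against 6.6% of all genes. They were Usp18, Ifit1, Ifit3, Rsad2 and Irgm1. Isg15, Oasl1, Oasl2, Ifi44 and Zbp1, which stood when any 1 library was left out, were lost there (adjusted p 0.0624 to 0.117). Scaling by library size alone, without the TMM factors that correct for composition, moved the median of all genes from 0.02 to 0.17 and the split of all calls from 1558 higher and 1292 lower to 2789 and 838. It called 13 members, all lower, against 6.81% of all genes, and left 3 members above 0, so fold changes here are relative to the TMM scaling.

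**Figure D2:**
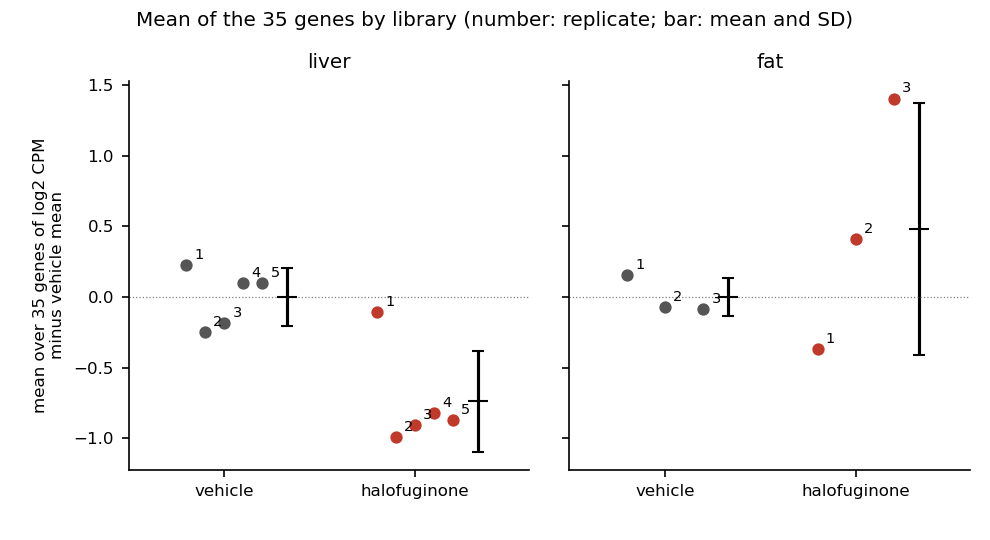
Mean over the 35 genes of log2 CPM minus the vehicle mean, 1 point per library (numbered by replicate), with the group mean and SD as bars, for liver and fat. In liver halofuginone 1 (−0.10) lies among the vehicle points and the other 4 between −0.99 and −0.82; in fat the 3 halofuginone points spread from −0.37 to 1.40.

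ISG15 is a small ubiquitin-like protein that is attached to other proteins, and USP18 removes it and also dampens signalling at the type I receptor. Isg15 (ENSMUSG00000035692) read 7.802, 5.86, 5.22, 6.68 and 6.42 CPM in vehicle livers 1 to 5 and 4.02, 2.57, 2.58, 3.16 and 3.5 CPM in halofuginone livers 1 to 5. All halofuginone livers were below all vehicle livers, halofuginone liver 1 included, though it was the highest of its group. Isg15 fell from 6.398 ± 0.966 CPM to 3.17 ± 0.622 CPM (SD, n = 5 each), with the smallest adjusted p of the 35 (log2 fold change −1.02, SE 0.16, adjusted p 0.00444). Usp18 (ENSMUSG00000030107) read 12.6, 12.8, 11.8, 13.8 and 11.01 CPM in vehicle and 8.59, 3.09, 5.15, 6.75 and 5.14 CPM under halofuginone. It fell without overlap from 12.4 ± 1.05 CPM to 5.75 ± 2.05 CPM (SD, n = 5 each, log2 fold change −1.12, SE 0.22, adjusted p 0.00857). Both calls stood when any 1 library was left out, but the single fit of all groups did not call Isg15 (adjusted p 0.0624).

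**Figure D3:**
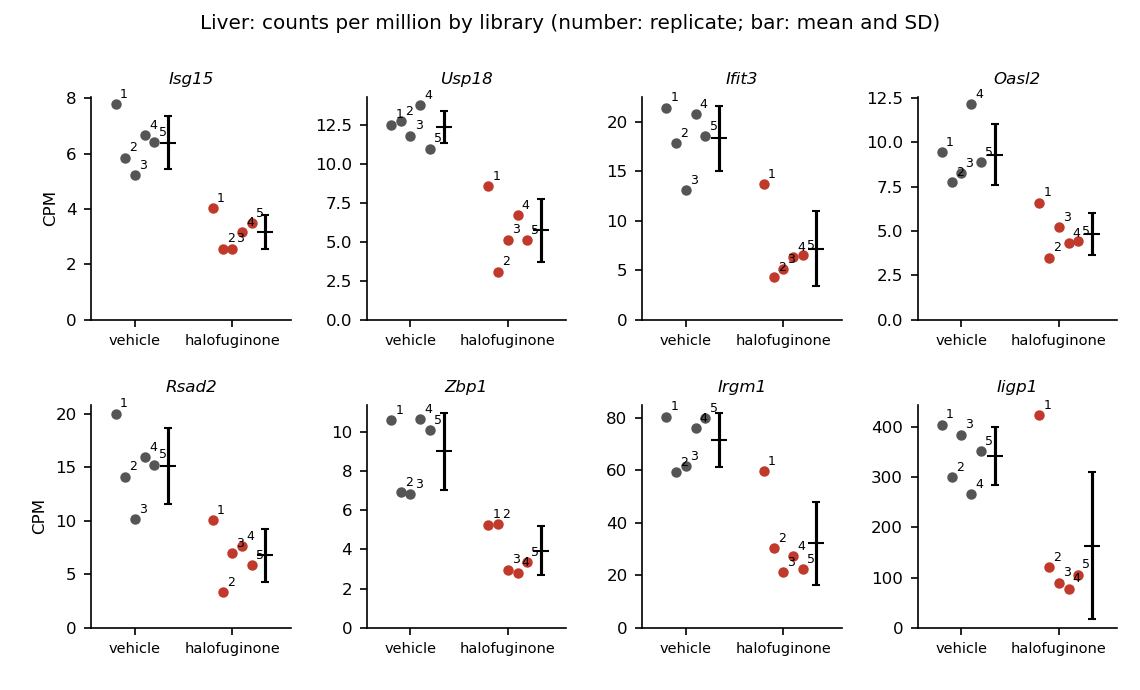
CPM of 8 members by library in liver, 5 vehicle (grey) and 5 halofuginone (red) points numbered by replicate, with mean and SD as bars and each axis starting at 0. Isg15, Usp18, Oasl2, Rsad2 and Zbp1 do not overlap between groups, while halofuginone liver 1 reaches into the vehicle range for Ifit3, Irgm1 and Iigp1.

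IFIT proteins bind viral RNA and block its translation, and all 3 genes had log2 fold changes of −1.03 or below. Ifit3 (ENSMUSG00000074896) read 21.4, 17.8, 13.1, 20.8 and 18.5 CPM in vehicle and 13.7, 4.32, 5.12, 6.33 and 6.52 CPM under halofuginone. Only halofuginone liver 1 reached the vehicle range. Ifit3 fell from 18.3 ± 3.29 CPM to 7.199 ± 3.75 CPM (SD, n = 5 each), the most negative log2 fold change of the 35 (log2 fold change −1.36, SE 0.28, adjusted p 0.0104). Because its near-identical copy Ifit3b can share reads with it, its level is uncertain. Ifit1 (ENSMUSG00000034459) read 13.7, 8.01, 8.02, 10.3 and 13.04 CPM in vehicle and 9.04, 2.68, 3.61, 3.704 and 3.13 CPM under halofuginone, where again liver 1 alone overlapped vehicle. It fell (log2 fold change −1.28, SE 0.32, adjusted p 0.0188), but the adjusted p was 0.0528 without halofuginone 3. Ifit2 read 7.17, 6.06, 5.45, 7.32 and 6.65 CPM in vehicle and 7.104, 1.305, 3.33, 1.58 and 2.904 CPM under halofuginone. Halofuginone liver 1 stood with vehicle and the other 4 lay well below it, and the test did not call Ifit2 with all libraries (log2 fold change −1.03, SE 0.37, adjusted p 0.0658). Without halofuginone liver 1 its log2 fold change was −1.54 (SE 0.25, adjusted p 0.000845).

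OAS enzymes make the oligoadenylates that switch on RNase L, and the OAS-like proteins lack or have altered enzyme activity. The OAS-like pair Oasl1 and Oasl2 fell, while the 3 synthetase genes Oas1a, Oas2 and Oas3 were not called with all libraries. Oasl1 (ENSMUSG00000041827) read 10.8, 9.42, 8.996, 13.6 and 11.96 CPM in vehicle and 7.402, 5.41, 4.72, 5.98 and 4.24 CPM under halofuginone, without overlap (log2 fold change −0.99, SE 0.17, adjusted p 0.00565). Oasl2 (ENSMUSG00000029561) read 9.43, 7.76, 8.25, 12.1 and 8.88 CPM in vehicle and 6.61, 3.504, 5.22, 4.32 and 4.43 CPM under halofuginone, also without overlap (log2 fold change −0.95, SE 0.18, adjusted p 0.0078). Oas2 read 2.85, 2.605, 2.61, 2.17 and 2.29 CPM and 2.93, 1.64, 1.68, 1.43 and 1.19 CPM, and Oas3 read 3.29, 2.55, 3.402, 3.697 and 3.02 CPM and 3.73, 1.305, 1.86, 1.81 and 1.64 CPM, in vehicle and under halofuginone. In both, halofuginone liver 1 was above the vehicle mean and livers 2 to 5 were below every vehicle liver. The log2 fold changes were −0.51 (SE 0.23, adjusted p 0.124) for Oas2 and −0.64 (SE 0.26, adjusted p 0.0883) for Oas3, and without halofuginone liver 1 they were −0.77 (SE 0.17, adjusted p 0.00383) and −0.97 (SE 0.17, adjusted p 0.00107). Oas1a, which can share reads with the copy Oas1g, had a log2 fold change of −0.36 (SE 0.22, adjusted p 0.247), and −0.61 (SE 0.17, adjusted p 0.0138) without that library.

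Among the other antiviral effectors 5 of 10 fell, where 10.5% of all genes were called lower. Rsad2 (ENSMUSG00000020641), which encodes viperin, an enzyme that makes a chain-terminating nucleotide, read 20, 14.1, 10.2, 15.9 and 15.2 CPM in vehicle and 10.03, 3.32, 6.98, 7.64 and 5.88 CPM under halofuginone. The highest halofuginone liver (1) lay just below the lowest vehicle liver (3). Rsad2 fell from 15.1 ± 3.54 CPM to 6.77 ± 2.46 CPM (SD, n = 5 each, log2 fold change −1.16, SE 0.26, adjusted p 0.0128). Ifi44 read 4.12, 3.41, 4.195, 5.19 and 6.49 CPM in vehicle and 3.28, 1.45, 2.04, 2.01 and 2.64 CPM under halofuginone, without overlap (log2 fold change −1.05, SE 0.24, adjusted p 0.0138). Mx2, a dynamin-like GTPase, read 5.43, 3.21, 2.98, 3.44 and 3.704 CPM and 2.98, 2.27, 1.43, 2.74 and 1.79 CPM, and the highest halofuginone liver (1, at 2.981 CPM) lay just under the lowest vehicle liver (3, at 2.983 CPM) (log2 fold change −0.75, SE 0.23, adjusted p 0.0391).

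Rtp4, which encodes a receptor transporter protein that also restricts viruses, read 14.2, 12.02, 11.6, 17.9 and 16.6 CPM in vehicle and 13.9, 4.85, 5.54, 6.71 and 6.33 CPM under halofuginone. Halofuginone liver 1 stood inside the vehicle range and the other 4 at roughly the level of each other, below it (log2 fold change −0.96, SE 0.26, adjusted p 0.026). Xaf1, which encodes a pro-apoptotic partner of XIAP, read 4.28, 3.26, 3.82, 5.64 and 3.34 CPM and 2.73, 2.199, 2.54, 2.701 and 3.31 CPM in the same order of groups, with overlap at halofuginone liver 5 (log2 fold change −0.59, SE 0.18, adjusted p 0.0374). The calls of Mx2, Rtp4 and Xaf1 hung on single libraries. For Mx2 the adjusted p was 0.0586 to 0.0927 without any one of vehicle 1, 2, 4 and 5 and of halofuginone 2, 3 and 5. For Rtp4 the adjusted p was 0.053 to 0.0696 without any one of vehicle 4 and 5 and of halofuginone 2, 3, 4 and 5. For Xaf1 the adjusted p was 0.0548 to 0.0873 without any one of vehicle 1, 3 and 4 and of halofuginone 2, 3 and 4.

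Bst2 and Ifi35 were not called. Bst2 read 42.8, 39.1, 42.2, 52.99 and 46.5 CPM in vehicle and 48.5, 23.6, 29.5, 35.6 and 33.7 CPM under halofuginone (log2 fold change −0.39, SE 0.17, adjusted p 0.109), with halofuginone liver 1 inside the vehicle range and the other 4 below it. Ifi35 read 17.2, 17.2, 16.6, 20.9 and 20.03 CPM and 14.7, 15.1, 13.02, 15.3 and 18.02 CPM, with halofuginone liver 5 inside the vehicle range (log2 fold change −0.27, SE 0.11, adjusted p 0.0848). The other 3 effectors had log2 fold changes of −0.74 (Mx1), −0.41 (Parp14) and 0.02 (Isg20), with adjusted p of 0.137 to 0.955. Without halofuginone liver 1, Bst2 was at −0.57 (SE 0.13, adjusted p 0.00495), Mx1 at −1.32 (SE 0.29, adjusted p 0.00388) and Parp14 at −0.63 (SE 0.14, adjusted p 0.00377).

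Of the 3 sensors, only Zbp1 was called, where 10.5% of all genes were called lower. Zbp1 (ENSMUSG00000027514), which binds Z-form nucleic acid and can start necroptosis, read 10.6, 6.91, 6.805, 10.6 and 10.1 CPM in vehicle and 5.27, 5.29, 2.97, 2.82 and 3.35 CPM under halofuginone. All halofuginone livers were below all vehicle livers, livers 1 and 2 being the highest of their group. Zbp1 fell from 8.999 ± 1.97 CPM to 3.94 ± 1.24 CPM (SD, n = 5 each, log2 fold change −1.20, SE 0.22, adjusted p 0.00768), a call that stood when any 1 library was left out. The single fit of all groups did not call Zbp1 (adjusted p 0.0959). The sensors of double-stranded viral RNA, Ifih1 (MDA5) and Ddx58 (RIG-I), had log2 fold changes of −0.17 (SE 0.10, adjusted p 0.221) and 0.13 (SE 0.13, adjusted p 0.479). Whether Zbp1 differed from them was not tested.

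Irf7 and Irf9 fell among the 5 transcription factors, where 10.5% of all genes were called lower. Irf7 (ENSMUSG00000025498), the factor that amplifies interferon-alpha transcription, read 40.8, 31.3, 34.4, 45.6 and 38.3 CPM in vehicle and 36.5, 11.97, 20.8, 20.5 and 18.5 CPM under halofuginone. Halofuginone liver 1 stood inside the vehicle range and livers 2 to 5 below it (log2 fold change −0.82, SE 0.24, adjusted p 0.0317). The call held only in some fits: the adjusted p was 0.0504 to 0.0759 without any one of vehicle 1, 2, 3, 4 and 5 and of halofuginone 3, 4 and 5. Irf9, the DNA-binding subunit of the complex on the ISRE, read 47.2, 39.4, 36.8, 41.8 and 42.8 CPM in vehicle and 34.1, 30.2, 34.5, 36.3 and 35.1 CPM under halofuginone. The groups did not overlap, but the step was small, from 41.6 ± 3.88 CPM to 34.04 ± 2.32 CPM (SD, n = 5 each, log2 fold change −0.29, SE 0.09, adjusted p 0.0372). For Irf9 the adjusted p was 0.0559 to 0.0825 without any one of vehicle 1, 2, 4 and 5 and of halofuginone 2, 3 and 5. The size of the step also hung on the scaling: with library size alone the log2 fold change of Irf9 was −0.13 (adjusted p 0.338), and with limma on log2(FPKM + 1) it was −0.12 (adjusted p 0.387). Its call was lost in 6 of 9 other settings.

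Stat2, the partner of Irf9 in that complex, read 43.05, 29, 38.03, 37.8 and 39.7 CPM in vehicle and 38.7, 65.7, 38.6, 35.03 and 36.8 CPM under halofuginone. Halofuginone liver 2 alone was high and the other 4 lay inside the vehicle range, and Stat2 was not called (log2 fold change 0.19, SE 0.18, adjusted p 0.439). Irf1 and Irf8, which also act in the interferon-gamma response and in myeloid cells, had log2 fold changes of −0.23 (SE 0.23, adjusted p 0.488) and −0.20 (SE 0.17, adjusted p 0.411).

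The GTPases of the interferon-gamma response act on the membranes around intracellular microbes. All 7 had negative log2 fold changes in liver and 2, Irgm1 and Igtp, were called, where 10.5% of all genes were called lower. Irgm1 (ENSMUSG00000046879) read 80.4, 59.1, 61.7, 76.03 and 79.9 CPM in vehicle and 59.8, 30.5, 21.3, 27.4 and 22.5 CPM under halofuginone. Halofuginone liver 1 stood just inside the vehicle range and the others at 21.3 to 30.5 CPM. Irgm1 fell from 71.4 ± 10.2 CPM to 32.3 ± 15.8 CPM (SD, n = 5 each, log2 fold change −1.15, SE 0.26, adjusted p 0.0137). Igtp, also known as Irgm3, read 57.5, 33.3, 31.97, 49.2 and 56.4 CPM and 40.4, 25.6, 15.8, 20.3 and 13.7 CPM, with halofuginone liver 1 inside the vehicle range and the other 4 below it (log2 fold change −0.98, SE 0.29, adjusted p 0.032). For Igtp the adjusted p was 0.053 to 0.0812 without any one of vehicle 1, 4 and 5 and of halofuginone 2, 3, 4 and 5.

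Iigp1, the member of highest level in vehicle liver, read 405, 300.2, 385, 267 and 352 CPM in vehicle and 424, 121, 90.3, 78.4 and 106 CPM under halofuginone. Halofuginone liver 1 was above every vehicle liver and the other 4 were far below every one. With all libraries Iigp1 was not called (log2 fold change −1.06, SE 0.43, adjusted p 0.0891), and without halofuginone liver 1 its log2 fold change was −1.81 (SE 0.17, adjusted p 2.67e-05). Gbp7, a guanylate-binding protein, read 14.3, 8.01, 8.11, 8.21 and 9.08 CPM and 9.44, 6.08, 5.402, 5.83 and 6.702 CPM, and vehicle liver 1 was high in its group (log2 fold change −0.52, SE 0.20, adjusted p 0.0795). The remaining 3 had log2 fold changes of −0.71 (SE 0.37, adjusted p 0.175) for Gbp2, −0.64 (SE 0.32, adjusted p 0.159) for Gbp3 and −1.13 (SE 0.53, adjusted p 0.136) for Tgtp1. Without halofuginone liver 1 they were −1.15 (SE 0.29, adjusted p 0.0094), −1.03 (SE 0.25, adjusted p 0.00703) and −1.85 (SE 0.42, adjusted p 0.00508), and Gbp7 was at −0.70 (SE 0.18, adjusted p 0.0111). Tgtp1 has a near-identical copy, Tgtp2, that can share its reads, so its level is uncertain.

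**Figure D4:**
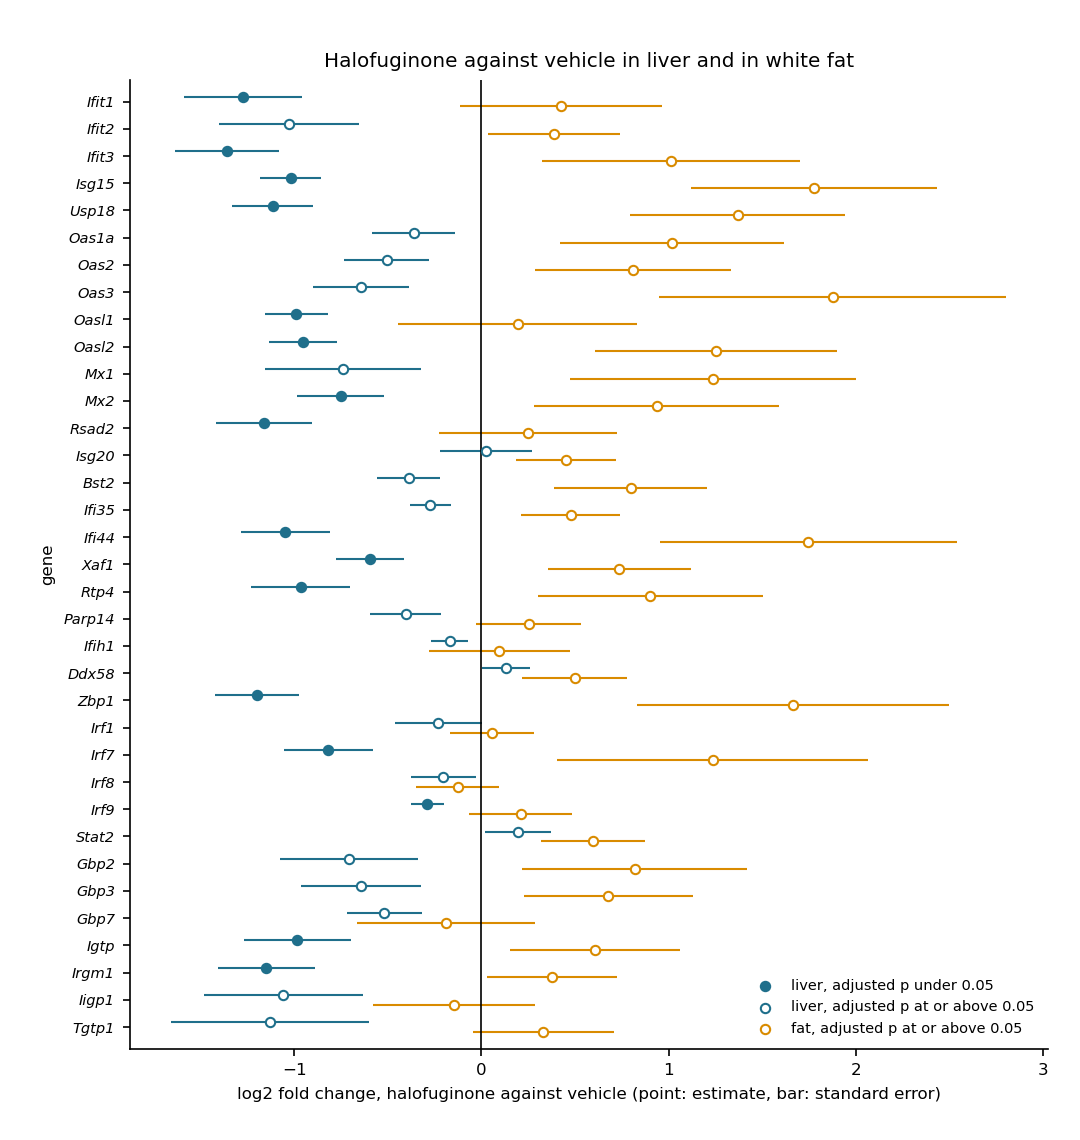
Log2 fold change (halofuginone over vehicle) of each of the 35 genes in liver (blue) and fat (orange), with standard errors as bars, and filled points for adjusted p under 0.05. The 16 filled points are all in liver and all below 0; in fat 32 of 35 points lie above 0 with wider bars, and 0 are filled.

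In white fat most members had log2 fold changes above 0, but without halofuginone fat 3 they split into 20 above 0 and 15 below. Of 14030 genes tested 0% were called (smallest adjusted p 0.0887), and so 0 of the 35 ISGs were. An unadjusted p under 0.05 was found for 2 members, Isg15 and Usp18, and for 13.4% of all genes (1881 genes), and DESeq2 called 655 genes and 0 members. The log2 fold change was above 0 for 32 of 35 members and below 0 for Irf8, Gbp7 and Iigp1, with a median of 0.60 against 0.01 over all genes. Every halofuginone library lay above every vehicle library for 1 member, Stat2, and below for 0, against 10.2% and 10.4% of all genes.

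The 3 halofuginone fat libraries spanned more than the vehicle libraries. The mean over the 35 genes of log2 CPM minus the vehicle mean was 0.16, −0.07 and −0.09 in vehicle fat 1 to 3, and −0.37, 0.41 and 1.40 in halofuginone fat 1 to 3. Halofuginone fat 3 lay above the vehicle range for 31 of the 35 (24.3% of all genes), halofuginone fat 2 for 19 (30.5%) and halofuginone fat 1 for 2 (27.5%). Halofuginone fat 1 lay below the vehicle range for 16 of the 35 (28.3% of all genes). Without halofuginone fat 3 the median was 0.10, with 20 members above 0 and 15 below. Without halofuginone fat 1 it was 0.94, with 34 above 0 and 1 below, and 0 were called. These libraries had the highest and the lowest mean of the members, so leaving out either was bound to shift the values this way.

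Isg15 read 2.94, 3.94 and 1.85 CPM in vehicle fat and 3.28, 7.297 and 19.4 CPM under halofuginone. Halofuginone fat 1 was inside the vehicle range, and libraries 2 and 3 were above it, library 3 the most (log2 fold change 1.78, SE 0.66, adjusted p 0.326). Usp18 read 5.396, 5.44 and 3.23 CPM and 4.81, 8.78 and 22.7 CPM, in the same order of libraries (log2 fold change 1.37, SE 0.57, adjusted p 0.369). Without halofuginone fat 3 the log2 fold changes were 0.88 for Isg15 and 0.55 for Usp18, and without halofuginone fat 1 they were 2.19 and 1.75 (adjusted p 0.387 and 0.425). Stat2 read 32.3, 32.6 and 28.3 CPM in vehicle fat and 34.8, 37.7 and 68.4 CPM under halofuginone. All 3 halofuginone libraries were above all 3 vehicle libraries, 2 of them narrowly (log2 fold change 0.60, SE 0.28, adjusted p 0.408, and 0.24 without halofuginone fat 3).

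**Figure D5:**
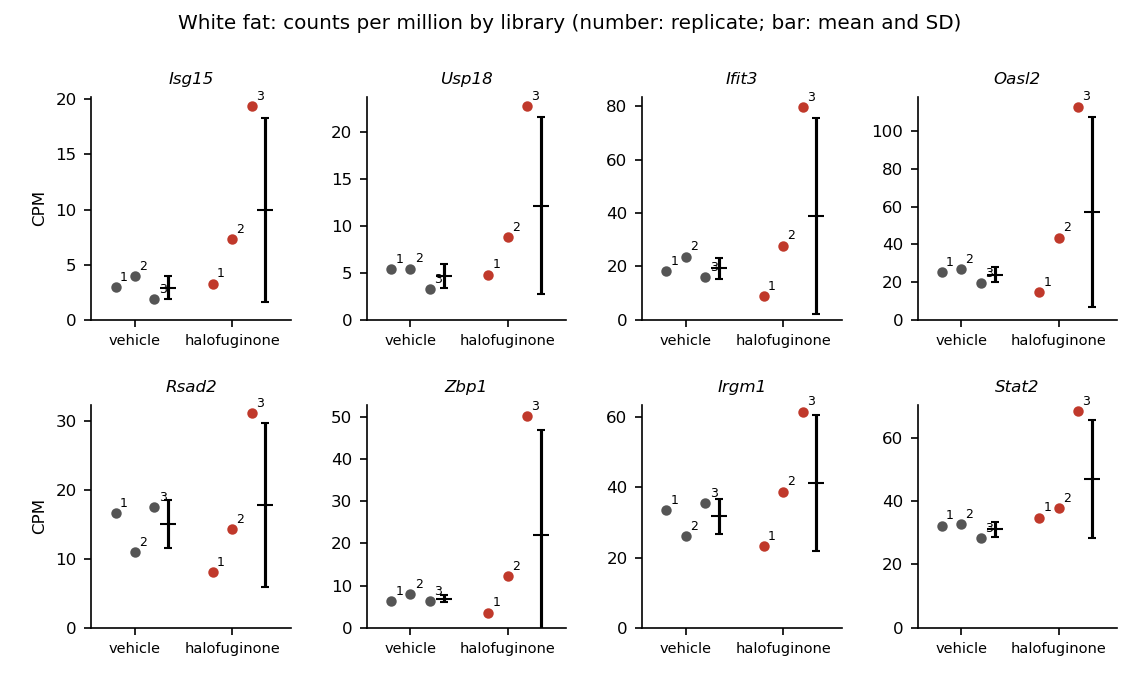
CPM of 8 members by library in white fat, 3 vehicle (grey) and 3 halofuginone (red) points numbered by replicate, with mean and SD as bars and each axis starting at 0. Halofuginone fat 3 is the highest point of every panel shown, and halofuginone fat 1 lies below all vehicle points in Ifit3, Oasl2, Rsad2, Zbp1 and Irgm1.

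Among the IFIT genes halofuginone fat 3 was the highest library for Ifit2 and Ifit3. Ifit3 read 18.1, 23.6 and 16.1 CPM in vehicle fat and 9.003, 27.8 and 79.7 CPM under halofuginone, so that the halofuginone libraries held both the lowest and the highest value (log2 fold change 1.01, SE 0.69, adjusted p 0.58). Ifit1 read 5.94, 2.33 and 6.23 CPM and 2.77, 8.41 and 8.26 CPM, where halofuginone libraries 2 and 3 were alike. Ifit2 read 20.6, 9.27 and 16.4 CPM and 16.6, 15.9 and 28.04 CPM, with only halofuginone fat 3 above vehicle. Their log2 fold changes were 0.43 for Ifit1 and 0.39 for Ifit2, and without halofuginone fat 3 they were −0.05 for Ifit3, 0.22 for Ifit1 and 0.09 for Ifit2.

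In the OAS family Oas3 had the largest log2 fold change of the 35 in fat (log2 fold change 1.88, SE 0.93, adjusted p 0.435). Oas3 read 4.26, 3.55 and 3.81 CPM in vehicle fat and 1.75, 7.25 and 33.7 CPM under halofuginone, with library 1 below vehicle and library 3 far above it. Oasl2 read 25.4, 26.9 and 19.6 CPM and 14.8, 43.6 and 113 CPM, again with library 1 lowest and library 3 highest of the 6 (log2 fold change 1.25, SE 0.65, adjusted p 0.455). Oas2 read 9.47, 6.33 and 6.98 CPM and 6.46, 8.37 and 25.1 CPM, with only halofuginone fat 3 above the vehicle range. Oasl1 read 7.01, 9.27 and 5.14 CPM and 3.06, 4.55 and 16.9 CPM, and there halofuginone fat 1 and 2 were both below vehicle. Log2 fold changes were 0.81 for Oas2 and 0.19 for Oasl1, and without halofuginone fat 3 they were 0.23 for Oas3, 0.30 for Oasl2, −0.02 for Oas2 and −0.89 for Oasl1.

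Among the effectors Ifi44 read 3.06, 1.498 and 2.14 CPM in vehicle fat and 1.64, 4.79 and 16.04 CPM under halofuginone (log2 fold change 1.75, SE 0.79, adjusted p 0.4). Rsad2 read 16.6, 11.04 and 17.6 CPM and 8.097, 14.4 and 31.1 CPM (log2 fold change 0.25, SE 0.48, adjusted p 0.865). In both, halofuginone fat 3 was highest of the 6, and in Rsad2 halofuginone fat 1 was lowest. Mx2 read 1.74, 0.999 and 0.693 CPM and 0.906, 1.72 and 3.94 CPM, Rtp4 12.7, 12.5 and 7.21 CPM and 7.98, 12.4 and 40.1 CPM, and Xaf1 9.05, 10.2 and 6.12 CPM and 7.98, 13.3 and 20.99 CPM. Halofuginone fat 3 was the highest library for these 3 too, and halofuginone fat 1 stayed inside the vehicle range. Bst2 read 28.8, 31.5 and 26.3 CPM and 23.7, 45.8 and 81.1 CPM, and Ifi35 24.6, 32.4 and 20.8 CPM and 27.4, 33.1 and 47.9 CPM, with halofuginone fat 2 and 3 above the vehicle range in both. The log2 fold changes of all 10 effectors were above 0, from 0.25 (Rsad2) to 1.75 (Ifi44), with adjusted p of 0.400 to 0.865. Without halofuginone fat 3, Rsad2 (−0.41), Rtp4 (−0.07) and Parp14 (−0.06) were below 0. The other 7 were nearer to 0 than with it, at 0.54 for Ifi44, 0.35 for Xaf1, 0.28 for Bst2, 0.24 for Ifi35, 0.23 for Isg20, 0.21 for Mx2 and 0.13 for Mx1.

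Zbp1 read 6.42, 8.04 and 6.41 CPM in vehicle fat and 3.62, 12.3 and 50.2 CPM under halofuginone, so that halofuginone fat 1 was lowest and halofuginone fat 3 highest of the 6 (log2 fold change 1.66, SE 0.83, adjusted p 0.443, and 0.21 without halofuginone fat 3). Irf7 read 17.9, 35.1 and 13.2 CPM and 11.9, 25.5 and 119 CPM (log2 fold change 1.24, SE 0.83, adjusted p 0.576). Vehicle fat 2 was high in its group, and without halofuginone fat 3 the log2 fold change of Irf7 was −0.22. Irf9 read 39.3, 41 and 30.6 CPM and 30.4, 37.6 and 60.2 CPM, with only halofuginone fat 3 above vehicle (log2 fold change 0.21, SE 0.28, adjusted p 0.797). Ifih1, Ddx58, Irf1 and Irf8 had log2 fold changes from −0.13 (Irf8) to 0.50 (Ddx58). Without halofuginone fat 3 the log2 fold changes were −0.10 for Irf9, −0.06 for Ifih1, 0.16 for Ddx58, −0.06 for Irf1 and −0.13 for Irf8.

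The GTPases were divided in fat. Igtp read 20.2, 22.8 and 18.2 CPM in vehicle fat and 14.7, 23.6 and 54.8 CPM under halofuginone, and Irgm1 read 33.6, 26.1 and 35.5 CPM and 23.2, 38.8 and 61.5 CPM. In both, halofuginone fat 1 was the lowest library and halofuginone fat 3 the highest. Gbp7 read 23.1, 9.88 and 28.97 CPM and 17.6, 26.7 and 9.99 CPM, and Iigp1 19.2, 9.32 and 28.4 CPM and 11.04, 22.1 and 18.2 CPM. Here halofuginone fat 3 was not the highest: it lay inside the vehicle range in both. Log2 fold changes were 0.60 for Igtp, 0.38 for Irgm1, −0.19 for Gbp7 and −0.15 for Iigp1, and 0.82, 0.68 and 0.33 for Gbp2, Gbp3 and Tgtp1, with adjusted p of 0.572 to 0.919. Without halofuginone fat 3 Igtp (−0.08), Irgm1 (−0.019) and Gbp2 (−0.20) turned below 0 and Gbp7 (0.11) above it, and Gbp3 was at 0.17, Tgtp1 at 0.0029 and Iigp1 at −0.18.

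A single fit over the 16 libraries took, for each gene, the drug effect in fat less the drug effect in liver. It uses the same libraries as the fits of each tissue, so its signs are not separate evidence. The contrast was above 0 for all 35 members, with a median of 1.41 against −0.04 over all 14853 genes, and 2 members were called, where 0.417% of all genes passed with the higher effect in fat. Isg15 had a contrast of 2.78 (SE 0.58, adjusted p 0.0397) and Usp18 of 2.47 (SE 0.56, adjusted p 0.0491). The next values were 2.79 (SE 0.72, adjusted p 0.0765) for Ifi44, 2.85 (SE 0.77, adjusted p 0.0837) for Zbp1 and 2.196 (SE 0.60, adjusted p 0.0878) for Oasl2, and the smallest were 0.06 (Irf8), 0.26 (Ifih1) and 0.27 (Irf1). Both calls were close to the threshold. Usp18 was called without liver halofuginone 1 or fat halofuginone 1 only, and lost without any 1 of the other 14 libraries (adjusted p up to 0.104). Isg15 was called without liver halofuginone 1, fat vehicle 2, fat halofuginone 1 or fat halofuginone 3, and lost without any 1 of the other 12 (adjusted p up to 0.0814).

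Without liver halofuginone 1 the contrast was called for 12 members, where 2.94% of all genes were called in that direction. They were Ifit1, Ifit2, Ifit3, Isg15, Usp18, Oasl2, Ifi44, Rtp4, Zbp1, Igtp, Irgm1 and Iigp1, with contrasts of 1.62 (Iigp1) to 2.97 (Zbp1). Without fat halofuginone 1 it was called for 7 members (Ifit3, Isg15, Usp18, Oas3, Oasl2, Ifi44 and Zbp1), against 0.218% of all genes. Without fat halofuginone 3 it was called for 1, Isg15 (1.83, SE 0.41, adjusted p 0.0471), against 0.513% of all genes, and the median contrast was 0.76. Given the means of the members in these libraries, leaving out liver halofuginone 1 or fat halofuginone 1 was bound to raise the mean contrast. Leaving out fat halofuginone 3 was bound to lower it.

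The genes that act before the ISGs were looked at from lists of ligands, receptors and sensors. Of 10 interferon ligand genes, 0 reached the count needed for testing in either tissue. Ifnb1, Ifna1, Ifna2, Ifna4, Ifna5, Ifne, Ifnl2 and Ifnl3 were at 0 counts in all 16 libraries, Ifnk reached 1 count, and Ifng, the type II ligand, reached at most 2 counts in a liver and 4 in a fat library. The receptor genes Ifnar1, Ifnar2, Ifngr1 and Ifngr2 had log2 fold changes of 0.16, 0.07, −0.08 and −0.16 in liver (adjusted p 0.317 to 0.547).

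Of 18 genes of nucleic acid sensing tested in liver, 5 fell and 1 rose, where 10.5% of all genes fell and 12.7% rose. Without halofuginone liver 1, 8 fell and 2 rose (21.6% and 21.2% of all genes), and without any 1 of the other 9 libraries 1 to 3 fell and 0 or 1 rose. In those 9 fits 579 to 972 of 12396 to 12450 genes fell and 696 to 980 rose. Mavs, the mitochondrial adaptor of RIG-I and MDA5, fell without overlap (log2 fold change −0.47, SE 0.11, adjusted p 0.0168), as did Irf2 (log2 fold change −0.41, SE 0.13, adjusted p 0.0428). Dhx58, which encodes the RIG-I-like protein LGP2, and the endosomal receptors Tlr7 and Tlr9 fell by 0.51, 0.49 and 0.80 on the log2 scale. Irf3, the factor that starts interferon-beta transcription, rose (log2 fold change 0.37, SE 0.10, adjusted p 0.0212).

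A further 54 ISGs outside the 35 were tested in liver, of which 13 fell and 1 rose, with a median log2 fold change of −0.41. Over all genes 10.5% fell and 12.7% rose. Without halofuginone liver 1, 31 fell and 3 rose, with a median of −0.71, against 21.6% and 21.2% of all genes. Without any 1 of the other 9 libraries 6 to 8 fell and 0 or 1 rose. In those 9 fits 579 to 972 of 12396 to 12450 genes fell and 696 to 980 rose. Ifit3b (log2 fold change −1.53, SE 0.26, adjusted p 0.00583), Samd9l (log2 fold change −0.77, SE 0.15, adjusted p 0.0084) and Ifi207 (log2 fold change −0.57, SE 0.12, adjusted p 0.0114) fell without overlap between the groups. Cmpk2, the neighbour of Rsad2 that supplies its nucleotide substrate, fell by 1.26 on the log2 scale and Eif2ak2, the kinase PKR, by 0.63. Gbp6, Trim21, Phf11d and Ifi204 fell by 1.06, 0.80, 0.77 and 0.68, and the last of the 10 by p, Ifi47, by 1.15. Nmi, named after its values were seen, was the 1 that rose (log2 fold change 0.48, SE 0.15, adjusted p 0.0439).

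In fat 0 of the 87 tested genes of these lists were called. Of 55 further ISGs 47 had a log2 fold change above 0, with a median of 0.30, and without halofuginone fat 3 there were 27 above 0, with a median of −0.0049. The smallest p among them were for Ifitm3, a restriction factor of virus entry (log2 fold change 1.13, SE 0.34, adjusted p 0.255), Nmi (log2 fold change 0.56, SE 0.22, adjusted p 0.348), Phf11d (log2 fold change 0.89, SE 0.35, adjusted p 0.349), Trim25 (log2 fold change 0.45, SE 0.19, adjusted p 0.37) and Sp100 (log2 fold change 0.63, SE 0.30, adjusted p 0.419). In the sensing list the smallest p was for Irf5, at a log2 fold change of −0.77 (SE 0.29, adjusted p 0.327), with all halofuginone libraries below all vehicle libraries. It was followed by the adaptor Myd88 (0.29), the adaptor Ticam1 (−0.43), Tlr8 (−0.86) and Mavs (−0.27), with adjusted p of 0.425 to 0.552. Of 14 receptors, kinases and transducers the smallest p were for Socs1 (log2 fold change 0.73), a feedback inhibitor of JAK kinases, Ifnar1 (−0.27), Tyk2 (−0.32), Ifngr1 (0.32) and Ptpn2 (0.43), with adjusted p of 0.473 to 0.638. In 1 fit of both tissues, the contrast of Phf11d was 1.65 (SE 0.39, adjusted p 0.0561) and that of Trim25 was 0.65 (SE 0.19, adjusted p 0.108).

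Markers of immune and parenchymal cells moved with some of these results, and their part in them was not tested. In liver, 0 of 7 macrophage and 0 of 5 Kupffer cell markers were called. Halofuginone liver 1 had the highest summed level of both lists, 463 CPM for macrophage markers against 251 to 303 CPM in halofuginone livers 2 to 5 and 273 to 340 CPM in vehicle, and 534 CPM for Kupffer cell markers against 241 to 311 and 244 to 412 CPM. It was also highest for the 6 T cell markers (8.15 CPM, with 0.671 to 1.66 CPM in the other halofuginone livers and 1.5 to 4.06 CPM in vehicle). The 4 tested markers of conventional dendritic cells were all below 0 and 0 were called, and their list summed to 6.44 to 8.01 CPM in halofuginone livers 2 to 5, 12.4 CPM in halofuginone liver 1 and 10.5 to 11.9 CPM in vehicle. Siglech, the 1 tested marker of plasmacytoid dendritic cells, a main source of interferon-alpha, was called lower in liver, with means of 0.6249 CPM (vehicle) and 0.258 CPM (halofuginone), while the 5 listed markers together summed to 0.859 to 1.47 and 0.994 to 3.97 CPM. Of the 7 hepatocyte markers 1 (Ttr) was called lower, and their sum was 118000 to 136000 CPM in vehicle, 111000 CPM in halofuginone liver 1 and 50600 to 96100 CPM in the other 4. Col1a1 and Col3a1 (of 5 fibroblast markers), Pecam1 and Cdh5 (of 5 endothelial markers) and Lipe (of 2 tested adipocyte markers) were also called lower and the endothelial Kdr higher, all named after their values were seen, while 0 of the tested neutrophil, T cell, natural killer cell and B cell markers were called. Of all 46 markers tested in liver 7 were called lower and 1 higher, against 10.5% and 12.7% of all genes. Marker calls without halofuginone liver 1 were not looked at.

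In fat, all 7 macrophage markers had log2 fold changes below 0 (median −1.23, 0 called), and their summed level was 2930 to 3260 CPM in the halofuginone libraries and 4290 to 9810 CPM in vehicle. Marker sums of conventional dendritic cells were 103 to 152 CPM under halofuginone and 323 to 661 CPM in vehicle. Most of that sum was Itgax (log2 fold change −2.26), which macrophages also express, and 4 of the 6 markers were above 0 (median 0.13, 0 called). The 5 plasmacytoid dendritic cell markers summed to 5.26 to 8.46 CPM under halofuginone and 1.38 to 3.16 CPM in vehicle. Of the 2 tested, Cox6a2, a muscle-type subunit of cytochrome oxidase, was at 4.67 and Pacsin1 at −1.38, and the defining marker Siglech was at 0 to 0.610 CPM in vehicle and 0.0526 to 0.0930 CPM under halofuginone. Kupffer cell markers summed to 1.86 to 4.53 CPM under halofuginone and 13.4 to 62.2 CPM in vehicle, with all 3 tested below 0 (median −3.50, 0 called). The 6 natural killer cell markers were all above 0 (median 1.03, 0 called). Their sum was highest in halofuginone fat 3, the library with the highest ISG levels, at 36.2 CPM against 9.85 and 14.7 CPM in halofuginone fat 1 and 2 and 6.64 to 14.3 CPM in vehicle. T cell markers summed to 48.1 CPM in halofuginone fat 3, 17.3 and 18.9 CPM in halofuginone fat 1 and 2 and 30.5 to 46.8 CPM in vehicle. The 5 B cell markers and 4 of 5 fibroblast markers were below 0, the 5 endothelial and 3 tested neutrophil markers were above 0, and 0 of any marker list were called.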

How the data were processed

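Per the labels' protocols, RNA was extracted with Trizol, captured on oligo(dT) beads and made into NEBNext Ultra libraries. The authors deposited 1 table per tissue with a count column and an FPKM column per library, per the file headers. The submitters' processing notes name fastp 0.18.0, Bowtie2 2.2.8, HISAT2, StringTie 1.3.1, RSEM and build mm39, with no role or order. The deposited counts may be rounded estimates, since in up to 31 genes per library FPKM was above 0 where no count was listed. Strand, annotation release and duplicate handling are not given in the sources used here, so overlapping and antisense genes and near-identical copies are uncertain. All columns were mapped to samples by title (0 left over), and no 2 libraries of a group agreed within sampling noise (smallest chi-square per degree of freedom 29.7 in liver and 50.5 in fat).

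Liver and fat were fitted separately in edgeR 4.0.16 under R 4.3.3 (filter by filterByExpr, TMM, glmQLFit, glmQLFTest, two-sided, Benjamini-Hochberg over all genes tested), and the drug effect in fat less that in liver in a joint fit of the 16 libraries, taken as independent, since the labels do not tie a liver to a fat library. All 35 members passed the filter on low counts in each fit. Each SE was derived from the fold change and its quasi-likelihood F (absolute log2 change divided by root F). CPM are counts over the TMM-scaled library size, and library means use log2 CPM with a prior count of 2. The fitting script was tested on simulated data. Alternatives were DESeq2 1.42.0, its size factors, library size alone, other filters, a block for the replicate number, a fit over all 4 groups, limma 3.58.1 on log2 of the deposited FPKM plus 1 or 0.1 (genes with at least 1 FPKM), and leaving out each library. The members, the pathway and marker lists, the tests and the rules were chosen with earlier results of these data known. Values in every library are given for members that were called, had an unadjusted p under 0.05 or did not overlap between groups in a tissue. Of each pathway list the text names called genes, up to 10 by smallest p, and where 0 were called the 5 of smallest p. Promoters are those of called members of smallest p that hold a motif, at most 6. A result on the liver list of receptors, kinases and transducers is not reported here.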

Additional observations from a re-analysis of the deposited data

Results flagged for a closer look

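Halofuginone liver 1 was far from the other 4 halofuginone livers for 10 members, by a test of the gap to the nearest library against the range of the group. It read 9.04 CPM for Ifit1 (next highest 3.70), 13.7 CPM for Ifit3 (6.52), 2.93 CPM for Oas2 (1.68), 3.73 CPM for Oas3 (1.86) and 1.49 CPM for Mx1 (0.572). It read 13.9 CPM for Rtp4 (next highest 6.71), 15.6 CPM for Gbp2 (6.51), 59.8 CPM for Irgm1 (30.5), 424 CPM for Iigp1 (121) and 12.2 CPM for Tgtp1 (3.39). The mean over the 35 genes was set apart in the same library, at −0.105 on the log2 scale with the next at −0.821. In its own group of 5 livers, Ifih1 was set apart in halofuginone liver 5 (28.5 CPM, next 24.5), Stat2 in halofuginone liver 2 (65.7 CPM, next 38.7) and Gbp7 in vehicle liver 1 (14.3 CPM, next 9.08). Of 72 groups of values looked at 14 were set apart in this way, where chance gives about 1 group in 20, and the groups of different members share their libraries. Iigp1 read on both sides of the vehicle range within 1 group: above all vehicle livers in halofuginone liver 1 and below all of them in the other 4.

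In the joint fit 2 members were called with the higher effect in fat, as were 0.417% of all genes. The fat effect minus the liver effect was 2.78 on the log2 scale for Isg15 and 2.47 for Usp18. Adjusted p were 0.0397 and 0.0491 by edgeR's quasi-likelihood test. Neither call was stable. With 1 library left out, the call was lost in 12 of 16 fits for Isg15 and in 14 of 16 for Usp18. Both were lost under the replicate block, and Usp18 also with DESeq2 size factors and with library size alone. Isg15 was higher than the vehicle mean in 3 of 3 halofuginone fat libraries and lower in 5 of 5 halofuginone livers. The liver groups did not overlap, but in fat halofuginone library 1 was inside the vehicle range.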

How the results depend on the processing

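In liver, 16 members were called in the reported fit, 5 in a single fit of all groups and 9 to 28 when 1 library was left out. All were lower. The share of all genes called lower was 10.5% in the reported fit and 6.6% in the single fit. It was 4.66% in the fit that called 9 members and 21.6% in the fit that called 28. Called genes ran from 1275 (without halofuginone 3) to 5312 (without halofuginone 1), and the members' median log2 fold change from −1.11 to −0.61. Isg20 was at −0.029 under the replicate block and −0.12 to 0.15 with 1 library left out, and Stat2 at −0.022 to 0.25. In fat, called genes were 1 with no filter on low counts, 655 with DESeq2, 17 with limma on log2(FPKM + 1), 334 in a single fit of all groups and 0 to 1 with 1 library left out, and 0 members were called in any of these.

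Without halofuginone fat 3, 20 members were above 0 in fat and 15 below, against 32 and 3 with all libraries. With 1 library left out the log2 fold change ran from −0.20 to 1.21 for Gbp2, −0.55 to 0.13 for Gbp7, −0.22 to 0.30 for Ifih1, −0.053 to 1.48 for Ifit3, −0.076 to 0.94 for Igtp, −0.22 to 1.74 for Irf7 and −0.25 to 0.034 for Irf8. It ran from −0.10 to 0.40 for Irf9, −0.019 to 0.66 for Irgm1, −0.020 to 1.14 for Oas2, −0.062 to 0.43 for Parp14, −0.41 to 0.59 for Rsad2, −0.070 to 1.28 for Rtp4, −0.47 to 0.27 for Iigp1, −0.10 to 0.27 for Irf1 and −0.89 to 0.58 for Oasl1. Limma on log2(FPKM + 0.1) gave 0.0076 for Iigp1, and limma with a pseudocount of 1 and 0.1 gave −0.0219 and −0.0221 for Irf1 and −0.0172 and −0.0886 for Oasl1. Oasl1 was at −0.21 under the replicate block.

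For the contrast, called members were 1 with DESeq2 size factors, 1 with library size alone, 8 with the DESeq2 test, 0 under the replicate block and 0 to 12 with 1 library left out. Called genes were 141 in the reported fit, 686 with the DESeq2 test, 20 under the replicate block and 34 to 1053 with 1 library left out. With 1 library left out the contrast ran from −0.023 to 0.56 for Ddx58, −0.048 to 0.61 for Gbp7, −0.052 to 0.45 for Ifih1, −0.068 to 0.21 for Irf8 and −0.012 to 0.60 for Stat2. The cause of these shifts was not tested. Within a tissue, same-numbered vehicle and halofuginone libraries did not deviate together: the correlation of their deviations was −0.156 to 0.057 in liver and −0.570 to 0.111 in fat, and 1 of 5 and 0 of 3 numbers matched best with themselves. This check does not pair a liver with a fat library, so it cannot say whether they share a mouse. With the replicate number as a block, 19 members and 1901 genes were called in liver and 0 genes in fat. Members of few counts are limited by depth: a library with 0 counts allows up to 0.148 CPM in liver and 0.176 CPM in fat.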
